A study of Mus musculus with 78 samples.

Results

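Long unmethylated valleys were mapped in the epiblast of E6.5 mouse embryos that lacked both Tet1 and Tet2. A valley was a stretch of at least 5 adjoining windows of 1000 bases (1 kb bins) on an autosome. Each bin needed at least 5 CpGs with a read and fewer than 20% methylated reads. The rule found 372 valleys, which held 2644 kb, or 0.192% of the 1379746 autosomal bins with at least 5 covered CpGs. Methylation itself chose the valleys, so their low level is a description and not a result. The 78 samples of the series are mouse embryos and embryonic stem cells: 39 STEM-seq libraries (bisulfite sequencing of few cells), 30 RNA-seq, 7 Hi-C and 2 MethylC-seq libraries. The methylation values came from 3 STEM-seq libraries of Tet1/2 double knockout epiblast, which the authors had merged into a single table. The strain label of these embryos was C57BL/6N x DBA, and per the labels' protocols they came from matings of Tet1+/- Tet2-/- mice. Those mice carried B6;129S4-Tet1tm1.1Jae/J and B6;129S-Tet2tm1.1Iaai/J alleles, and extraembryonic tissue served for genotyping. Expression came from embryos of C57BL/6N x DBA/2N that carry no label of a Tet mutation, with 2 RNA-seq libraries in each group. The groups compared were E7.5 ectoderm, E7.5 primitive streak and E7.5 mesoderm, each against E6.5 epiblast, and E6.5 epiblast against E6.5 visceral endoderm. No methylation table of embryos with intact Tet genes and no expression of the knockout was analysed here, so the valleys describe the mutant alone.

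In mammals most cytosines that precede a guanine carry a methyl group, which DNMT enzymes write and copy, while CpG-rich promoters mostly stay free of it. TET enzymes oxidise 5-methylcytosine to 5-hydroxymethylcytosine and further forms, a step towards its removal, and bisulfite sequencing reads 5-methylcytosine and 5-hydroxymethylcytosine alike. Broad unmethylated regions, called valleys or canyons, are known at genes for developmental transcription factors, many of them bound by Polycomb complexes. During gastrulation the epiblast, the tissue that makes the whole embryo proper, gives rise to ectoderm, mesoderm and endoderm, and many of these factors are switched on in only some of these layers.

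The promoters of 5 valley genes show sequence from within these regions, each from 250 bases before to 50 bases after the start of transcription. They are the start of Pax6, in the longest valley, of Uncx, in the longest valley with a single placed gene, and of Otx2, which had the highest level in E6.5 epiblast among valley genes of the homeobox lists. The valley of Meis2 had the lowest level of all valleys with more than 100 reads, and the En1 window was one of 15 valley promoter windows at 20% or more. The letters are those of RefSeq on GRCm38.p6, 5′ to 3′ on the strand of the gene, with every CpG in capitals. Coordinates below are mm9 positions, found by matching the spacing of the CpGs to the positions listed in the methylation table.
Pax6: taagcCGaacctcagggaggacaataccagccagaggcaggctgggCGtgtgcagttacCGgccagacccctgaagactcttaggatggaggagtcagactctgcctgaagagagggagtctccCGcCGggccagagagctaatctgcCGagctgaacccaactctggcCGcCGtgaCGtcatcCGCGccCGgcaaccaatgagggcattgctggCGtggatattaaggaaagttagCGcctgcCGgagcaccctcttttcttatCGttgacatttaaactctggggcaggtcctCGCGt
Uncx: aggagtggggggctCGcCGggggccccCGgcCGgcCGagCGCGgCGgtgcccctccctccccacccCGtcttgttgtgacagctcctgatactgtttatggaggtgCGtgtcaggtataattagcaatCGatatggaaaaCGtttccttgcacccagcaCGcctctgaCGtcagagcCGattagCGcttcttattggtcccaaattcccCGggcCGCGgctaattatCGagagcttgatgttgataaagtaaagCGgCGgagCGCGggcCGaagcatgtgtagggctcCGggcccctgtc
Otx2: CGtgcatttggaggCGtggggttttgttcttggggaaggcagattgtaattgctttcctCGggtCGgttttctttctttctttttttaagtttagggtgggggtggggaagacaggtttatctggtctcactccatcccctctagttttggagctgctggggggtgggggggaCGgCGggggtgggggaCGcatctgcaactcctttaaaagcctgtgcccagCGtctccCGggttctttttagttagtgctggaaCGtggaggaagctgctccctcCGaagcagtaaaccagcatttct
Meis2: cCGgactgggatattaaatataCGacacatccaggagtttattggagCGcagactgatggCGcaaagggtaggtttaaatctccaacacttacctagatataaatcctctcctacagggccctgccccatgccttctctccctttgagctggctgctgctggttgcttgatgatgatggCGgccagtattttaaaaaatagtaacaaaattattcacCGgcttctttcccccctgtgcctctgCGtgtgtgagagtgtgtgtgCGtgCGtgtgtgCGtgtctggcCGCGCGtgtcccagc
En1: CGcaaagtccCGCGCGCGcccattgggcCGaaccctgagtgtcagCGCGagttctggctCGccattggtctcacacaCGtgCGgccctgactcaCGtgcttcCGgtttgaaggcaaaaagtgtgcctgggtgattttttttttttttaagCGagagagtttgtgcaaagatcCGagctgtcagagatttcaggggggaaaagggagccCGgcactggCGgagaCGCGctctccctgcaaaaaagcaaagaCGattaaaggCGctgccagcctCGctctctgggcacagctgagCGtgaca
The Pax6 window (chr2:105508803-105509102, plus strand) held 18 CpGs with 0 methylated of 56 reads, a share of 0% with a Wilson 95% interval up to 6.42%. The Uncx window (chr5:140019602-140019901, plus strand) held 26 CpGs with 1 methylated of 76 reads, and the Otx2 window (chr14:49282360-49282659, minus strand) held 11 CpGs with 0 of 21. The Meis2 window (chr2:115890306-115890605, minus strand) held 13 CpGs with 1 methylated of 32 reads, and was the only 1 of the 5 with the letters TATAAA. In the En1 window (chr1:122498814-122499113, plus strand) 9 of 34 reads over 23 CpGs were methylated, a level of 26.5% (14.6 to 43.1%), inside a valley with a level of 5.00%.

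Most valleys were short. Length had a median of 6 kb and a maximum of 26 kb, 137 valleys had the minimum of 5 kb, and 56 reached 10 kb or more. The longest lay at Pax6 (chr2:105506001-105532000, 26 kb), the regulator of eye and forebrain, with 62 methylated of 1380 reads, or 4.49% (Wilson 95% interval 3.52 to 5.72%). It also held the start of Pax6os1, an antisense RNA. Next came the valleys of Six3 with Six3os1 (chr17:86006001-86027000), a factor of the anterior forebrain, and of Uncx (chr5:140011001-140032000), a homeobox factor of the somites. Both spanned 21 kb, with levels of 3.87% and 3.67%. The Pax7 valley (chr4:139375001-139394000), at a factor of muscle precursors and neural crest, spanned 19 kb at 2.16%, and the Nkx2-2 valley (chr2:147004001-147022000), at a factor of the ventral neural tube, spanned 18 kb at 3.80%. The remaining valleys among the 10 longest spanned 16 or 17 kb. They held Hmx3 and Hmx2, factors of the inner ear, Skor1, a corepressor of dorsal spinal neurons, and the long noncoding RNA Gm33152, while valleys at chr11:85642001-85659000 and chr3:128897001-128913000 had no placed promoter. Levels over these 10 ran from 2.16% at Pax7 to 7.24% at the chromosome 11 valley.

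Pooled over all valleys, 15926 of 330926 reads were methylated, a level of 4.81% (4.74 to 4.89%), against 81.2% over all autosomal CpGs. Levels of single valleys ran from 0% to 11.9% with a median of 4.59%. Of these valleys, 210 were under 5%, 149 lay between 5 and 10%, and 13 were at 10% or more. Among valleys with more than 100 reads the lowest was that of Meis2, a TALE homeobox cofactor of Hox proteins (0.258%, 388 reads), followed by an unnamed one at chr7:152124001-152129000 (0.539%). Nr2e1, an orphan nuclear receptor of neural stem cells, and Lhx4, a factor of the pituitary, stood in valleys of 0.942% and 0.886%. The valleys of Tfap2d (0.881%) and Hoxb3os (0.817%) were lower than both. The highest were a valley at chr5:120109001-120115000 (11.9%, 202 reads) and those at Robo3, an axon guidance receptor (11.8%), Hoxa13, the posterior member of the Hoxa cluster (11.5%), and Pcdh8, a protocadherin (11.5%). These valleys were picked as extremes of the level itself, so their distance is a description. Level had little relation to length or CpG density across the 372 valleys, with Spearman's rho of -0.13 for level with length and -0.01 for level with CpGs per kb. Neighbouring valleys share a library and many share a gene cluster, so these are descriptions.

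**Figure D1:**
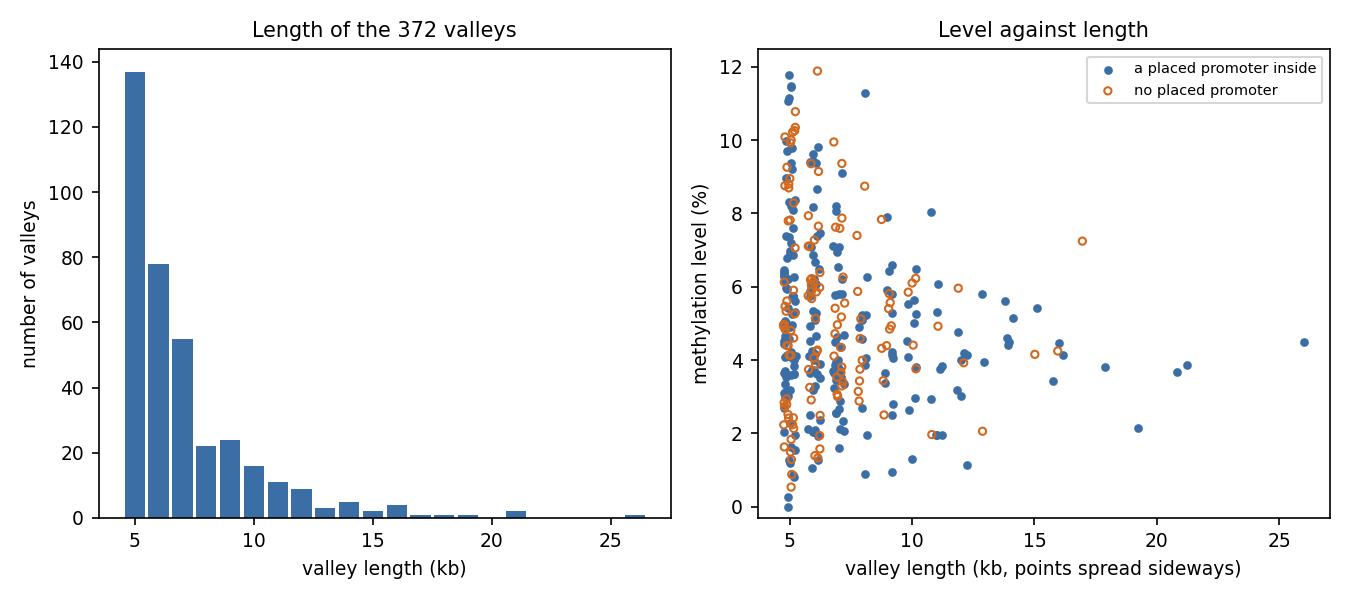
Number of valleys at each length in kb (left) and methylation level in percent against length (right), 1 point per valley, filled where a promoter was placed inside and open where none was. Lengths fall off from 137 valleys of 5 kb to 1 of 26 kb, and levels stay between 0 and 11.9% at every length.

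Levels were also read from the strand that had not chosen the valley. With the bins chosen on Watson-strand reads alone, 280 valleys were found, and their Crick-strand reads had a level of 4.46%. With the bins chosen on Crick-strand reads, 283 valleys were found, at 5.91% in Watson-strand reads. The strands of a CpG come from the same embryos, so this is a repeat reading of the same cells. Of 7691 valley CpGs with 5 to 20 reads, 2.59% had as many methylated as unmethylated reads or more, against 5.28% in runs of 2 to 4 low bins, 5.73% in single low bins and 93.5% in all other bins. Such a CpG, of at least 5 reads, was found in 135 of the 372 valleys.

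Depth differed among valleys. The median valley had 1.62 reads per CpG, and the autosomes as a whole had 2.34. A pair of valleys stood far apart: chr1:24618001-24623000 had 84338 reads, or 1081 per CpG, at 0.883%, and chr17:39979001-39986000 had 64940 reads at 9.95%. Neither held a placed promoter, and without them the pooled level was 4.80% over 370 valleys. The shallowest valley, over the histone genes H2bc23, H2ac23 and H4c17, had 0 methylated of 66 reads. The table gives no molecular identifiers, so all intervals here cover counting error only.

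Valley edges were of several kinds. Of 744 edges, 602 met a bin of 20% or more and 142 met a bin with fewer than 5 covered CpGs, which ends a run whatever its level. The first group of bins had a median level of 43.0%: 174 were between 20 and 30%, 172 between 30 and 50%, 186 between 50 and 80%, and 70 at 80% or more. In steps of 100 bases the level was 4.54% at 500 to 600 bases inside, 8.10% at 100 to 200 bases inside, 24.8% in the first 100 bases outside and 55.9% at 900 to 1000 bases outside. These steps kept positions with more than 20 reads, which weigh on the levels inside. Without such positions the last bin inside had 6.82% and the first bin outside 44.8%. CpG density was 35.1 per kb in the last bin inside and 14.0 in the first outside. The boundary is set on a grid of 1 kb, so part of each step lies on the wrong side of the true edge.

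Beyond the first bin, methylation outside valleys stayed below that outside shorter runs for a long way. Its level was 44.1% in the second bin outside, 45.2% in the fifth, 58.9% in the tenth, 68.6% in the twentieth and 71.4% in the thirtieth. Runs of 2 to 4 low bins had 73.7% in the second bin outside and 74.2% in the tenth, and single low bins had 76.2% and 75.4%. Among second bins outside with at least 5 covered CpGs, 24.1% were low at valleys, against 5.03% at runs of 2 to 4 bins and 3.42% at single low bins. At 1 kb or less from the next valley were 17 pairs of neighbours, and 48 pairs were within 10 kb, although the median gap between neighbours was 2978 kb. When interruptions of a single bin were bridged, the count rose to 489 valleys and the length to 3927 kb, at a level of 5.69%. The profile out to 30 kb left out positions with more than 20 reads. No test was made, because bins around a valley are not replicates.

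**Figure D2:**
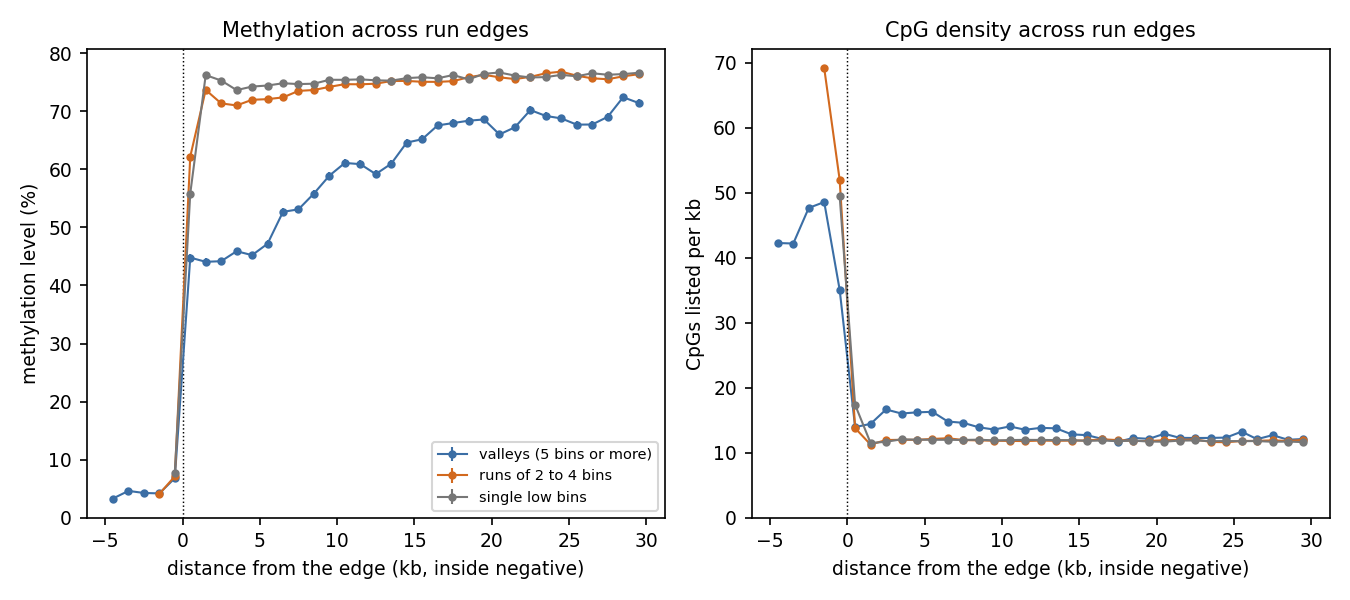
Methylation level in percent with Wilson 95% intervals (left) and CpGs listed per kb (right) by distance from the edge in kb, negative inside, for valleys, runs of 2 to 4 low bins and single low bins. Valley flanks start at 44.8% and reach 71.4% at 30 kb, below both other classes at every distance outside, and carry more CpGs per kb than both from 2 to 10 kb.

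The maps of 6 valleys show such flanks. At Pax6 the bins next to the valley on its left had levels of 28.6 and 40.8%, and 5 low bins lay beyond them. The Otx2 valley (8 kb, 1.97%) began 408 bases inside the gene and ran 7591 bases upstream of its start. The Meis2 valley spanned 5 kb, with 1 bin of 37.5% between it and the next low bins on the upstream side. The En1 valley, at a homeobox factor of the midbrain and hindbrain boundary, spanned 10 kb and was followed on both sides by low bins past a bin with fewer than 5 covered CpGs.

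**Figure D3:**
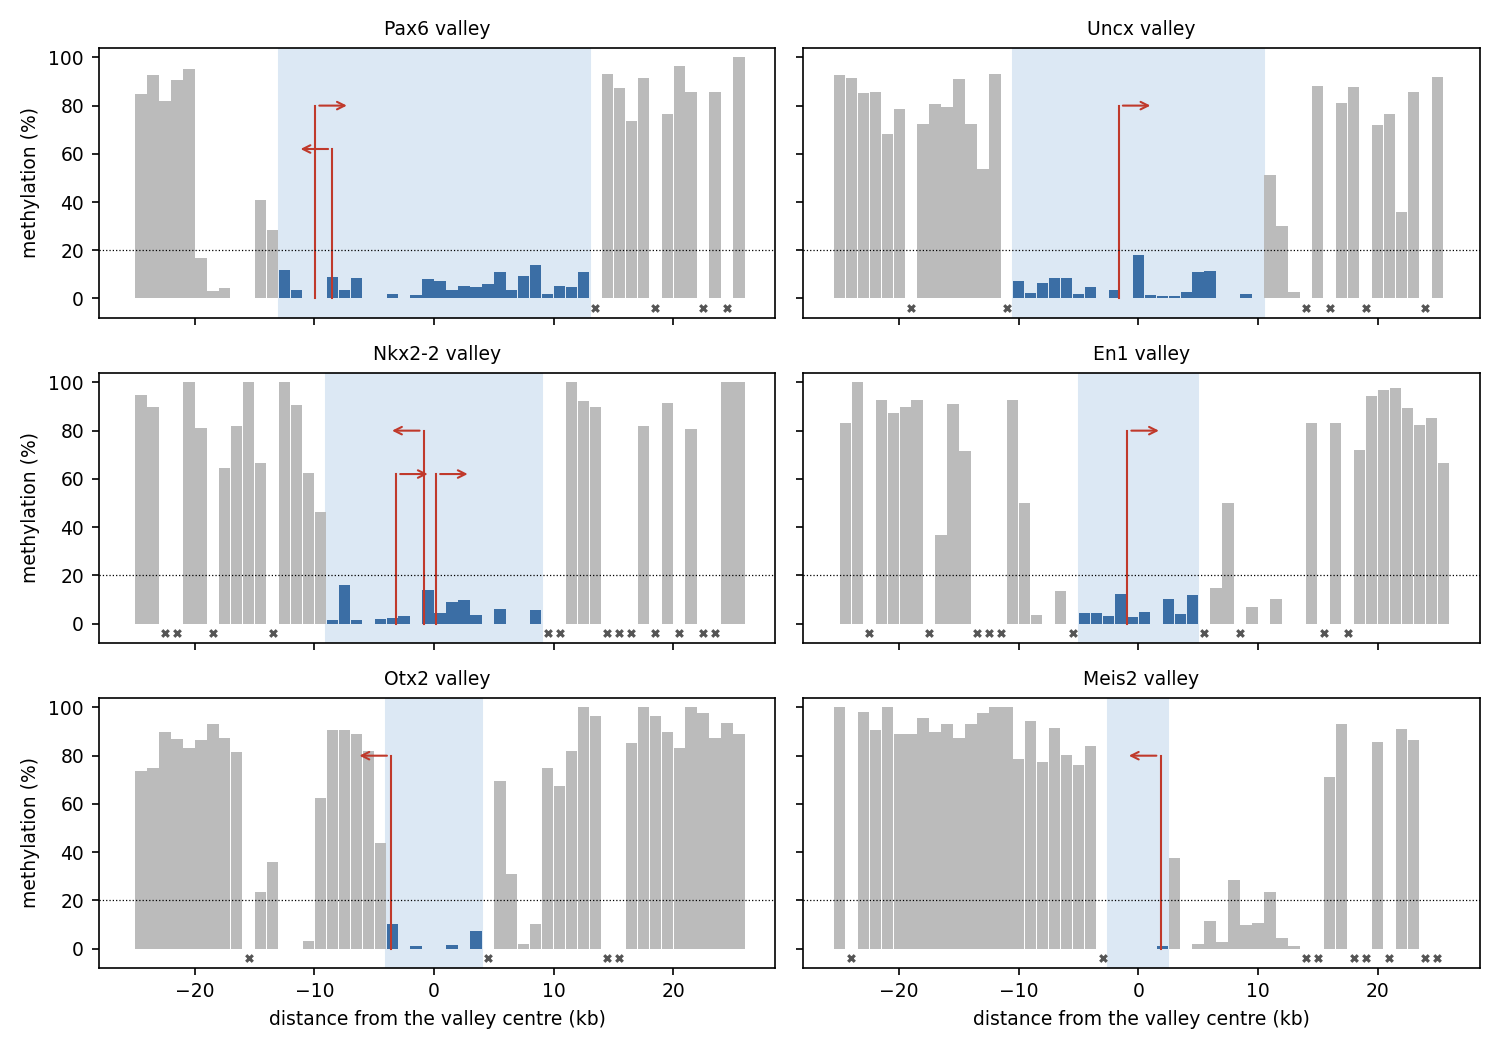
Methylation level in percent of 1 kb bins within 25 kb of the centre of 6 valleys, with bins of the valley in blue on a shaded span, other bins in grey, crosses where fewer than 5 CpGs were covered and a dotted line at 20%. Red lines with arrows mark start sites and direction, the tallest being the gene in the title. Several bins of the Meis2 and Otx2 valleys stand at 0, and low grey bins lie beyond the edges at Pax6, Uncx, Otx2, Meis2 and En1.

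Length set the valleys apart from shorter runs by rule. Just inside the limit, 137 valleys of 5 bins had a median level of 4.96%, and just outside it 293 runs of 4 bins had a median of 4.78%. Their CpG densities were 46.7 and 48.0 per kb. In all, 16056 autosomal runs of low bins were found, of which 372 were valleys, 5477 had 2 to 4 bins and 10207 were single bins. Valleys held 10.4% of all 25303 low bins. They were less dense in CpGs (42.6 per kb) than runs of 2 to 4 bins (53.8) or single low bins (49.5), and denser than all other bins (11.1). Apart from the 2 very deep valleys, density ran from 18.8 CpGs per kb at chr11:96184001-96190000 to 79.8 at the valley of Brd2 and H2-DMa.

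Promoters were placed for 13100 autosomal genes, those whose window holds at least 8 CpGs. Of the 372 valleys, 240 held 1 or more of these starts, 308 genes in all: 215 protein-coding genes and 93 long noncoding RNAs. Among the other valleys, 27 had a placed start within 5 kb. As a share, 2.35% of placed genes started in a valley. A gene with several placed promoters counted once, by the promoter in the longest class of low run. Families of developmental transcription factors had far larger shares. Nkx genes, homeobox factors of heart, gut and ventral neural tube, had 8 of 11 placed members in valleys. Pax genes had 4 of 6 (Pax1, Pax2, Pax6, Pax7), and LIM homeobox genes of the Lhx and Isl kind had 6 of 9, among them Lhx1 and Isl1. Hox genes, which set position along the body axis, had 10 of 19, and other homeobox genes 29 of 50. Both placed Dlx genes were in valleys, as were 2 of 3 Irx genes. Of 5 placed genes in the family of Six2 and Six3, these 2 were in valleys.

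Factor families outside the homeobox lists varied. Gata genes had 2 of 3 placed members in valleys, forkhead genes 9 of 23, Sox genes 4 of 11, basic helix-loop-helix genes 8 of 27 and T-box genes 2 of 8. Signalling ligands had fewer: 2 of 14 Wnt genes (Wnt1 and Wnt11), 1 of 13 Fgf genes (Fgf9) and 0 of 11 Bmp and Gdf genes. None of 17 glycolysis genes or 50 ribosomal protein genes started in a valley. Of the ribosomal protein genes, 28 started in a run of 2 to 4 low bins and 18 in a single low bin. Together the listed families made up 93 of the 308 valley genes, and the other 215 came from 12811 genes outside the lists, a share of 1.68%. The family lists were drawn up with earlier results of these data known, so their shares are counts beside the share of all placed genes and carry no test.

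**Figure D4:**
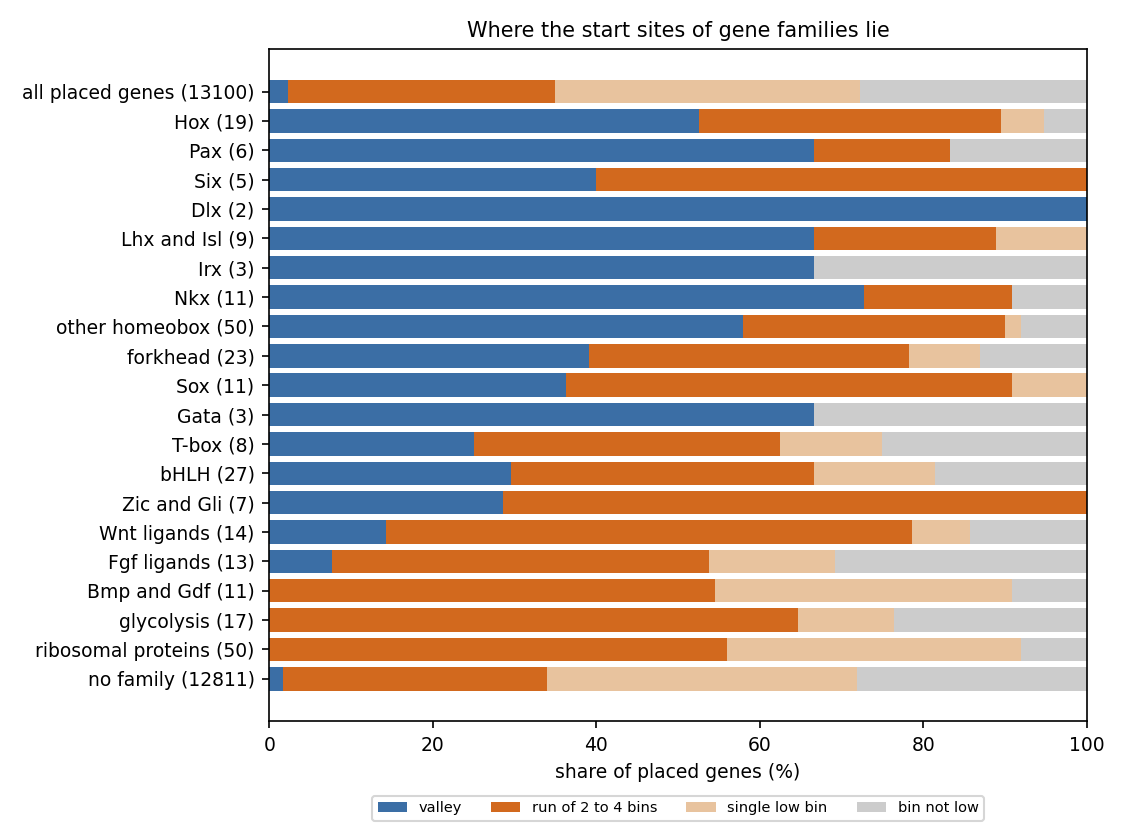
Share in percent of the placed genes of each family whose start lay in a valley, a run of 2 to 4 low bins, a single low bin or a bin that was not low, with the number of placed genes in brackets. Homeobox families reach 40 to 100% in valleys, against 2.35% of all placed genes and 0% of ribosomal protein genes.

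The Hox clusters were split among several valleys. In the Hoxa cluster, separate valleys held Hoxa2 (10 kb, 4.10%), Hoxa5 (5.97%), Hoxa10 (11 kb, 2.93%), Hoxa11 with Hoxa11os (3.25%) and Hoxa13 (11.5%), and Evx1 beyond its end stood at 5.88%. In the Hoxd cluster, Hoxd9 (2.70%), Hoxd10 (5.91%), Hoxd11 (2.89%) and the neighbouring Evx2 (6.27%) each had a valley. Hoxb4 (4.94%) and Hoxb8 (3.65%) stood in valleys of the Hoxb cluster. The Dlx1 and Dlx2 valleys on chromosome 2, at 2.96% and 6.07%, lay 1 kb apart.

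A gene was assigned to a valley when its start lay inside, so valley on both sides of the start follows from the rule. For the 177 genes alone in their valley, a median of 2982 bases lay upstream of the start and 3419 downstream, and 105 had the larger part downstream. Valley genes were short. Their median length was 9204.5 bases, against 19745 for all placed genes, and 74 ended inside their valley. Among all valley promoters pooled, 2.43% of 9159 reads were methylated, against 9.50% of reads for all placed promoters and 3.02% in runs of 2 to 4 bins. The median valley promoter window had 21 CpGs, the same as the median of all placed windows. Of the 308 windows, 214 had 0 methylated reads, and 15 were at 20% or more. Besides En1 these included Nkx2-2 (9 of 43 reads), the long noncoding RNA Gm33151 (7 of 26), Gata2 (6 of 24), Foxa1 (5 of 19) and Sox11 (4 of 20), each in a valley under 10%. The others rested on 3 to 15 reads.

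TATAAA or its reverse complement TTTATA, as in the Meis2 window printed above, was in 10.4% of valley windows and in 6.24% of all placed windows of 300 bases. CCAAT or ATTGG was in 45.8% against 36.2%, and GGGCGG or CCGCCC in 62.3% against 65.7%. Both strands were searched, and no motif contains another. A match is a match of letters and no more.

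Valley genes were mostly low in the embryos without a label of a Tet mutation. Of the 308 genes, 241 had a row in the expression table, 18 of them under an older symbol. FPKM, fragments per kilobase of transcript and per unit of library size, is a level per length, and the read depth behind it is unknown. In E6.5 epiblast 54 of the 241, or 22.4%, had a mean of at least 1 FPKM, against 73.4% of genes that start in runs of 2 to 4 low bins, 73.7% in single low bins and 41.4% in bins that were not low. At E7.5 the share was 28.2% in ectoderm, 30.3% in primitive streak and 33.6% in mesoderm. Under 1 FPKM in all 11 groups of embryos stood 119 genes, and 25 had at least 1 FPKM in each. Fewer cells that express a gene and less RNA per cell cannot be told apart in these bulk samples.

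Genes of the 10 longest valleys were under 1 FPKM on average in E6.5 epiblast, where they had a row. Pax6 had 0.95 and 0.62 FPKM in E7.5 ectoderm and 0.12 and 0.06 FPKM in E6.5 epiblast. Six3 had 1.29 and 1.57 FPKM in E7.5 ectoderm, was listed at 0 in both libraries of E7.5 primitive streak and E7.5 mesoderm, and had 0.05 and 0.08 FPKM in E6.5 epiblast. Its antisense neighbour Six3os1 had 1.28 and 0.90 FPKM in E7.5 ectoderm and 0 and 0.08 FPKM in E6.5 epiblast, and since it is not stated whether counting used strand, reads of the pair may not be told apart. Uncx, Hmx3 and Hmx2 were listed at 0 in every library of the 5 groups compared. In them Pax7 had at most 0.20 FPKM, Nkx2-2 at most 0.20 FPKM and Skor1 at most 0.15 FPKM. Of these genes Six3 alone passed the filter of the test below, and it was called higher in E7.5 ectoderm than in E6.5 epiblast. Of its values given above only those in E7.5 ectoderm reached 1 FPKM, so the filter fixes this call in part. With the libraries of those groups alone in the fit, no gene was called.

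A smaller set was expressed in E6.5 epiblast, with 22 genes at 10 FPKM or more. Ptma, which encodes prothymosin alpha, had 2607 and 2477 FPKM, and Cks1b, a partner of cyclin-dependent kinases, 715 and 732 FPKM. Tgif1, a repressor in the TGF-beta pathway, had 192 and 166 FPKM, and Otx2, a homeobox factor of the epiblast and forebrain, 129 and 101 FPKM. Mycn, Dusp6, Igf2bp3, Spry2 and Phc1 stood between 47.2 and 122 FPKM. Valleys whose genes reached at least 10 FPKM numbered 21, with a median of 5 kb and a maximum of 9 kb. Valleys whose genes with an expression row were all under 1 FPKM numbered 166. These had a median of 7 kb and a maximum of 26 kb, and 38 of them reached 10 kb. The levels of the 21 and the 166 were 3.79% (3.42 to 4.19%) and 4.80% (4.67 to 4.94%), and their median CpG densities were 49.6 and 43.6 per kb. Valleys without a gene that had an expression row numbered 155, and 17 of them reached 10 kb. Expression and methylation came from different embryos with different genotypes, and the part of the genotype was not tested.

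Differences between tissues were tested with limma on log2(FPKM + 1) over 12874 genes, with 22 libraries of 11 groups in the fit. Calls needed a Benjamini-Hochberg adjusted p below 0.05 together with a change of 1 or more on the log2 scale. Of the 241 valley genes, 113 passed the filter of at least 1 FPKM in 2 libraries. A gene that is silent in the other tissues passes only through the tissue where it is high. Counts and medians among the 113 therefore support nothing about valley genes as a class. The labels do not say that the 2 libraries of a group came from separate embryos, so the p-values measure the spread between libraries, which may be technical. The comparisons of E7.5 tissues share the E6.5 epiblast libraries, and their values are given side by side.

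In E7.5 primitive streak, the site where cells leave the epiblast, 23 valley genes were higher than in E6.5 epiblast and 8 lower. Among all genes tested 6.91% were called, 4.15% higher and 2.76% lower. With no filter, 21 of all 241 valley genes were higher (8.71%, against 2.04% of all genes) and 6 lower (2.49%, against 1.21%). The median log2 fold was 0.23 over the 113 valley genes, a value that the filter fixes in part, and 0.00 over all genes. Of the 5 largest rises among genes with at least 5 FPKM in streak, 4 were of homeobox genes. The homeobox lists held 62 of the 241 valley genes and 9 of the 23 that were higher. Nkx1-2, a factor of neuromesodermal progenitors, had 150 and 138 FPKM in E7.5 primitive streak, against 0.78 and 0.41 FPKM in E6.5 epiblast (log2 fold 6.51 ± 0.24 SE, limma adjusted p = 8.3e-12). Gbx2, a factor of the anterior hindbrain, had 34.8 and 26.5 FPKM in streak, against 0.05 and 0.15 FPKM in epiblast (4.84 ± 0.28, adjusted p = 1.91e-09). Cdx2, a regulator of posterior Hox genes, had 25.8 and 32.1 FPKM in streak, against 0.05 and 0.14 FPKM in epiblast. All streak libraries of these genes stood far above all epiblast libraries. Meis2 rose to a mean of 26.1 ± 1.49 FPKM in streak, against 0.345 ± 0.00822 in epiblast (SD, n = 2 each), and Sp8, a zinc finger factor of limb and neural tissue, to 38.1 ± 1.17 FPKM, against 2.24 ± 0.0429.

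Otx2 fell in the streak. It had 0.82 and 5.11 FPKM in E7.5 primitive streak, against 129 and 101 FPKM in E6.5 epiblast (log2 fold -5.11 ± 0.41 SE, limma adjusted p = 1.2e-07). Bcl11a, a zinc finger repressor, had 0.90 and 1.81 FPKM in streak, against 11.8 and 10.5 FPKM in epiblast (-2.39 ± 0.27). Gse1 fell as well, with a log2 fold of -1.48. Eomes, a T-box factor of the early streak and endoderm, had 1.41 and 3.77 FPKM in streak, against 9.03 and 13.2 FPKM in epiblast (-1.82 ± 0.34). Fzd7, a Wnt receptor, had 2.95 and 4.21 FPKM in streak, against 12.7 and 10.9 FPKM in epiblast (-1.50 ± 0.42). The libraries did not overlap for any of these genes, but the call of Eomes ended without streak replicate 1 and with the 4 libraries alone in the fit, and that of Fzd7 when any 1 of the 4 libraries was left out, with a pseudocount of 0.1 and with no filter. Over all genes, 562 were called without streak replicate 1, in place of 889.

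In E7.5 mesoderm 29 valley genes were higher than in E6.5 epiblast and 11 lower, where 11.3% of all genes tested were called, 5.99% higher and 5.34% lower. With no filter, 28 of the 241 were higher (11.6%, against 3.05% of all genes) and 11 lower (4.56%, against 2.63%). The median log2 fold was 0.17 over the valley genes that passed the filter, which fixes it in part, and 0 over all genes. Msx2, a homeobox factor downstream of BMP signals, had 67.7 and 53.5 FPKM in mesoderm, against 0.58 and 1.40 FPKM in epiblast (log2 fold 4.97 ± 0.46 SE, limma adjusted p = 4.09e-07). Tcf21, a basic helix-loop-helix factor of visceral mesoderm, had 16.3 and 16.7 FPKM in mesoderm, against 0 and 0.07 FPKM in epiblast (4.08 ± 0.17). Isl1, a factor of the second heart field, had 17.6 and 14.6 FPKM in mesoderm, against 0 and 0.06 FPKM in epiblast (4.05 ± 0.27). Msx1 had 53.8 and 50.9 FPKM in mesoderm, against 2.19 and 2.58 FPKM in epiblast, and Meis2 a log2 fold of 3.43. Of 8 basic helix-loop-helix genes with a row, 4 passed the filter and were called higher in mesoderm (Hand2, Id2, Tal1 and Tcf21), a count that the filter fixes in part, since genes near 0 in epiblast pass it through the tissue where they are high. Gata2 and Gata3 were also called higher.

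Among the genes that fell in mesoderm, Sox2, a pluripotency and neural factor, had 0.27 and 0.14 FPKM in mesoderm, against 5.19 and 5.72 FPKM in epiblast (log2 fold -2.43 ± 0.30 SE, limma adjusted p = 1.19e-05). Phc1, a Polycomb subunit, had 8.22 FPKM in both mesoderm libraries, against 65.8 and 47.2 FPKM in epiblast (-2.62 ± 0.34). Otx2 had 19.8 and 24.5 FPKM in mesoderm, against 129 and 101 FPKM in epiblast (-2.32 ± 0.41). Eomes fell by 2.91 and Bcl11a by 2.54 on the log2 scale. None of these groups overlapped.

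In E7.5 ectoderm 16 valley genes were higher than in E6.5 epiblast and 6 lower, where 2.84% of all genes tested were called, 0.909% higher and 1.93% lower. With no filter, 19 of the 241 were higher (7.88%, against 0.438% of all genes) and 5 lower (2.07%, against 0.731%). The median log2 fold was 0 over the valley genes that passed the filter and -0.17 over all genes. Nkx1-2 had 35.3 and 32.4 FPKM in ectoderm, against 0.78 and 0.41 FPKM in epiblast (log2 fold 4.46 ± 0.24 SE, limma adjusted p = 2.55e-09). Gbx2 had 8.81 and 13.6 FPKM in ectoderm, against 0.05 and 0.15 FPKM in epiblast (3.45 ± 0.28), and Meis2 had 14.8 and 9.81 FPKM, against 0.34 and 0.35 FPKM (3.28 ± 0.55). Id2, an inhibitor of basic helix-loop-helix factors, had 168 and 97.5 FPKM in ectoderm, against 15.3 and 26.2 FPKM in epiblast. Msx2 had 17.6 and 6.81 FPKM in ectoderm, against 0.58 and 1.40 FPKM in epiblast. Spry2, a feedback inhibitor of FGF signals, had 5.93 and 7.15 FPKM in ectoderm, against 54.9 and 60.5 FPKM in epiblast (-2.96 ± 0.50), and Dusp6, a phosphatase of ERK, 14.9 and 5.62 FPKM, against 82.3 and 69.9 FPKM (-2.90 ± 0.33). Eomes, Gse1 and Bcl11a also fell, by 2.94, 2.03 and 1.05 on the log2 scale.

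This comparison rested on the shared fit. With only the 4 libraries of E7.5 ectoderm and E6.5 epiblast in the fit, limma called 0 genes of any kind, with 1317 genes and 39 valley genes at an unadjusted p under 0.05, and the lowest adjusted p among the 10 named genes was 0.092. The median log2 fold over all genes was -0.17, and quantile normalization moved it to 0.00 and the calls to 197 higher and 157 lower, in place of 117 higher and 248 lower. Among valley genes that scaling gave 19 higher and 5 lower. Without ectoderm replicate 1 the calls over all genes numbered 1272, and without epiblast replicate 1 they numbered 169, in place of 365. The valley genes called then numbered 23 and 18, in place of 22. The call of Msx2 ended without epiblast replicate 1, and that of Bcl11a ended under 7 of 10 alternatives.

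**Figure D5:**
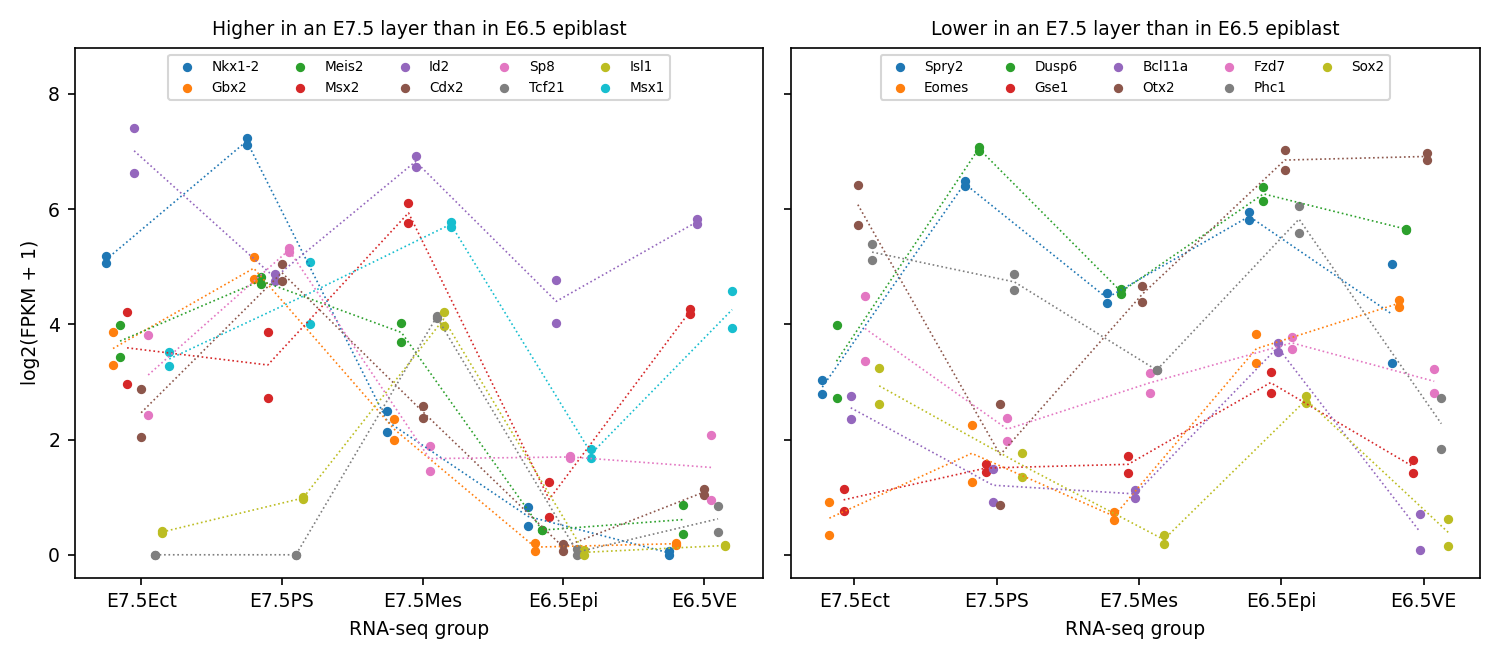
Expression as log2(FPKM + 1) of the valley genes named as higher (left) or lower (right) in an E7.5 tissue than in E6.5 epiblast, with 1 point per library, 2 per group, and a dotted line through the group means. Nkx1-2 and Otx2 lie furthest apart between E7.5 primitive streak and E6.5 epiblast, and Tcf21 and Isl1 are high in E7.5 mesoderm alone among the groups shown.

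Between tissues of the same stage, 20 valley genes were higher in E6.5 epiblast than in E6.5 visceral endoderm, an extraembryonic layer, and 18 lower. Among all genes tested 21.6% were called, 9.42% higher and 12.2% lower. With no filter, 17 of the 241 were higher (7.05%, against 4.9% of all genes) and 18 lower (7.47%, against 6.33%). The median log2 fold was 0.02 over the valley genes that passed the filter and 0.07 over all genes. Lef1, a transcription factor of the Wnt pathway, had 33.2 and 28.6 FPKM in epiblast, against 2.65 and 0.58 FPKM in visceral endoderm (log2 fold 3.73 ± 0.40 SE, limma adjusted p = 1.22e-06). Rarg, a retinoic acid receptor, had 15.2 and 16.1 FPKM in epiblast, against 0.81 and 0.03 FPKM in visceral endoderm (3.60 ± 0.29). Phc1, Bcl11a and Sox11 were higher by 3.55, 3.20 and 3.01 on the log2 scale. Lhx1, a LIM factor of the anterior visceral endoderm and head organizer, had 0.52 and 0.58 FPKM in epiblast, against 51.8 and 66.3 FPKM in visceral endoderm (-5.27 ± 0.23, adjusted p = 2.03e-11). Ccn1, a matricellular protein, had 2.59 and 3.12 FPKM, against 38.3 and 57.2 FPKM (-3.64 ± 0.55). Msx2 had 0.58 and 1.40 FPKM, against 18.3 and 17.1 FPKM. Hoxa10 and the endoderm factor Foxa1 were at most 0.07 FPKM in epiblast, against 6.27 and 8.19 FPKM for Hoxa10 and 5.08 and 6.36 FPKM for Foxa1 in visceral endoderm. All libraries of the groups were separate for these 10 genes.

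The homeobox lists held 62 valley genes with an expression row, of which 17 passed the filter, and other homeobox genes such as Tgif1 are outside these lists. A gene near 0 in epiblast passes only through a tissue where it is high, so the filter fixes the counts among the 17 in part. In E7.5 ectoderm 8 of the 17 were higher than in E6.5 epiblast and 0 lower, beside 0.909% and 1.93% of all genes tested, and none was called with those 2 groups alone in the fit. In streak 9 were higher and 1 lower, beside 4.15% and 2.76% of all genes. In mesoderm 10 were higher and 1 lower, beside 5.99% and 5.34%. The listed gene that was lower in streak and in mesoderm was Otx2. In E6.5 epiblast against visceral endoderm 0 of the listed genes were higher and 5 lower (Hoxa10, Lhx1, Gsc, Msx1 and Msx2), beside 9.42% and 12.2% of all genes. Tgif1, outside the lists, was higher in E6.5 epiblast than in visceral endoderm and lower in E7.5 mesoderm than in E6.5 epiblast. The 4 Pax and 2 Dlx genes with a row did not pass the filter. Of 9 forkhead genes with a row 5 passed, and Foxd3, a pluripotency and neural crest factor, was lower in each E7.5 tissue, where it was listed at 0, against 1.39 and 1.65 FPKM in E6.5 epiblast. Of 4 Sox genes, Sox2 and Sox11 passed, and both were higher in epiblast than in visceral endoderm.

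Markers of other tissues were checked beside these results. The summed level of 5 visceral endoderm markers was 2.00 and 17.4 FPKM in E6.5 epiblast, against 5697 and 6233 FPKM in E6.5 visceral endoderm. It was between 0.971 and 7.11 FPKM in the 3 E7.5 tissues. The sum of 5 streak and mesoderm markers was 567 and 726 FPKM in streak, 177 and 178 FPKM in mesoderm and 25.5 and 4.09 FPKM in ectoderm, against 71.4 and 76.9 FPKM in E6.5 epiblast. In this list T and Mesp1 were higher in both streak and mesoderm than in E6.5 epiblast, but Eomes was lower in both. Mixl1 was lower in mesoderm, with 9.01 and 11.6 FPKM, against 38.9 and 40.7 FPKM in E6.5 epiblast. The sum of 6 epiblast markers was 1241 and 1266 FPKM in E6.5 epiblast, against 436 and 423 FPKM in visceral endoderm. Among these Fgf5 was lower in epiblast, with 118 and 96.2 FPKM, against 182 and 197 FPKM in visceral endoderm. Otx2 overlapped, with 129 and 101 FPKM in epiblast, against 114 and 125 FPKM in visceral endoderm. In the E7.5 tissues the epiblast sum lay between 126 and 488 FPKM, and the streak and mesoderm sum in E6.5 visceral endoderm was 129 and 194 FPKM. Mixl1 alone made up 107 and 168 FPKM of that sum in visceral endoderm. The sum of 4 extraembryonic ectoderm markers was 10.1 and 15.7 FPKM in E6.5 epiblast and 5.48 and 7.18 FPKM in E7.5 ectoderm. In streak the sum was 32.3 and 37.9 FPKM, of which Cdx2 made up 25.8 and 32.1 FPKM. In mesoderm it was 43.6 and 38.2 FPKM, of which Bmp4 made up 38.9 and 32.5 FPKM. Elf5 and Eomes, the other members, were lower in streak and in mesoderm than in E6.5 epiblast. The part of other cells in the differences was not tested. The methylation table gave no check of the knockout or of the tissue.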

How the data were processed

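Methylation was deposited by the authors as counts of methylated and unmethylated reads per CpG and strand on mm9, from 3 merged libraries. CASAVA 1.8 and BS-Seeker2 are named, without their roles, per the submitters' processing notes. Levels here are methylated over all reads in 1000-base bins, with Wilson intervals at 95%. Since the libraries were merged, valleys have no replicate spread. RefSeq promoters of GRCm38.p6 with at least 8 CpGs were placed on mm9 by the spacing of their CpGs: 15229 of 31396 on autosomes were placed, 47 had no place, 106 had several and 16014 had too few CpGs. Of 15211 neighbouring placed pairs, 15209 kept the reference order.

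Expression was deposited by the authors as FPKM, and TopHat2 2.0.11 and Cufflinks 2.0.2 are named per the submitters' processing notes. Of 22613 genes, 27 symbols that had become dates were left out. limma 3.58.1 (R 4.3.3) was fitted with a trend to log2(FPKM + 1) of 22 libraries, with 11 residual degrees of freedom. On this scale a fold understates changes of low genes. Correlations of replicates ran from 0.94 to 0.99. Named genes were the 10 longest valleys with their genes, valleys of lowest and highest level, and per comparison the 5 largest rises and falls among called valley genes whose higher group averaged 5 FPKM or more and whose libraries did not overlap. Other genes that are named to fill out a family or a level were chosen after their values were seen. Alternatives were other limits, bins, strands, pseudocounts, filters, normalization, a replicate block and single libraries left out. Scripts were tested on simulated data and run in Python 3.11.15. Members and lists were chosen with earlier results of these data known. Regions were not tested against each other, since bins of a merged table are not replicates.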

Additional observations from a re-analysis of the deposited data

Results flagged for a closer look

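The rule for valleys covers autosomes, and the X chromosome of the same table lay outside it. By the same rule it held 11 valleys with 80 kb in all, the longest 17 kb, and 136 of 3284 reads were methylated, a level of 4.14% (Wilson 95% interval 3.51 to 4.88%), against 78.2% over all X-linked CpGs. The signal was singled out because these data entered no comparison.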

How the results depend on the processing

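The count of 372 valleys and their 2644 kb depended most on the rule itself. A limit of 10% gave 188 valleys and 1189 kb, runs of 3 bins gave 1577 and 6552 kb, and runs of 8 bins gave 102 and 1106 kb. Other settings gave 280 to 489 valleys. The level inside, 4.81%, was 1.84% with a limit of 10%, 4.39% with 15% and 5.23% with 25%. It was 4.99% with 3 bins, 4.45% with 8 bins, 4.46% from Crick and 5.91% from Watson reads that had not chosen the valleys, 4.92% with a mean over CpGs and 5.69% with interruptions bridged. The first bin outside, 44.8%, was 41.3% with 10 CpGs per bin, 45.9% with 3, 27.1%, 37.2% and 52.3% with limits of 10, 15 and 25%, 54.2% and 40.1% with 3 and 8 bins, 43.1% with bins shifted by 500 bases, 32.8% and 32.2% by strand, 43.2% with a mean over CpGs and 48.5% with bridging. Genes in valleys numbered 268 by a stricter match and 347 within 5 kb, in place of 308.

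Fitting only the 2 groups compared gave 0 calls for E7.5 ectoderm against E6.5 epiblast, over all genes and over valley genes, and the cause was not tested. Leaving out single libraries gave 169 to 1272 calls over all genes for that comparison, and 562 to 618 for primitive streak against epiblast. Valley genes then numbered 32 to 37 for epiblast against visceral endoderm, 18 to 23 for ectoderm, 22 to 23 for streak and 35 to 39 for mesoderm. A lone remaining library was assumed to vary like the other groups. With the replicate number as a block, valley calls numbered 39, 22, 30 and 40 in the order epiblast against visceral endoderm, ectoderm, streak and mesoderm, in place of 38, 22, 31 and 40. Differences between same-numbered libraries had correlations of 0.11, 0.44, -0.07 and -0.27 in that order, so the numbers are not shown to pair libraries. With the mesoderm numbers crossed, the block gave 1452 calls over all genes and 41 over valley genes. Bridging, leaving out the deepest valleys and the crossed block were added after the data were seen. Of the 40 named differences, 28 were called under every alternative and 0 changed sign. At 1.62 reads per CpG in the median valley, single CpGs and short gaps were not resolved. Expression depth is unknown, since FPKM carry no counts.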
